A study of Mus musculus with 20 samples.

Results

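Carboxylesterases are enzymes that split ester and amide bonds, and the mouse carries their genes in a pair of groups on chromosome 8. The genes described here are Ces1b, Ces1c, Ces1d, Ces1e, Ces1f, Ces1g, Ces2a, Ces2c, Ces2e and Ces3a, taken by gene symbol from the array annotation. They were chosen with earlier results of these data known, so counts over these genes are descriptions. Of these 10 genes 9 had a row in the table of 19505 genes, each from 1 array feature, and Ces2c was not analysed here. They were measured in whole liver of mice labelled OGTL KO (KO) at 4 weeks, OGTL WT (WT) at 4 weeks, OGTL KO at 8 weeks and OGTL WT at 8 weeks, with 5 mice and 5 Clariom S Mouse arrays in each of the 4 groups. OGT is the O-GlcNAc transferase, an enzyme that places N-acetylglucosamine on serines and threonines of proteins inside the cell, and the labels and title point to its loss in the liver. No source used here gave the targeted allele, the Cre driver, the strain or the sex. The comparisons ask how the carboxylesterases differ between KO and WT livers at each age, and whether that difference changes with age.

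In the liver most carboxylesterases sit in the lumen of the endoplasmic reticulum of hepatocytes, where they hydrolyse drugs, pesticides and other foreign esters as well as stored lipid esters. Ces1d, also known as triacylglycerol hydrolase, mobilises stored triglyceride for the assembly of very low density lipoprotein, and Ces1g also hydrolyses triglyceride and acts on lipid secretion. Ces1c is secreted into the blood as the plasma carboxylesterase, and Ces1e, or egasyn, holds beta-glucuronidase in the endoplasmic reticulum. The Ces2 enzymes hydrolyse diglycerides and triglycerides and esters with a large alcohol group, such as the drug irinotecan.

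The genes lie in separate groups on chromosome 8 of the GRCm38.p6 assembly. The Ces1 group, which also holds Ces1a and Ces5a, spans chr8:93020214-93535879, or 516 kb, and contains Ces1b, Ces1c, Ces1d, Ces1e, Ces1f and Ces1g. The Ces2 and Ces3 group, which also holds Ces4a, spans chr8:104734003-105150109, or 416 kb, and lies 11.2 Mb away. Promoter sequence, taken from RefSeq from 250 bases before to 50 bases after the annotated start, was matched for 7 of the 10 genes, and none was matched for Ces1d, Ces1f and Ces3a. The windows of the matched Ces1 genes are shown because some of these neighbouring genes passed the test for KO against WT livers at 4 weeks and others did not. They are Ces1b (chr8:93079891-93080190), Ces1c (chr8:93131234-93131533), Ces1e (chr8:93229570-93229869) and Ces1g (chr8:93337160-93337459), all on the minus strand and written 5′ to 3′ in the direction of the gene, with the letters TTATGTAA in capitals.
Ces1b: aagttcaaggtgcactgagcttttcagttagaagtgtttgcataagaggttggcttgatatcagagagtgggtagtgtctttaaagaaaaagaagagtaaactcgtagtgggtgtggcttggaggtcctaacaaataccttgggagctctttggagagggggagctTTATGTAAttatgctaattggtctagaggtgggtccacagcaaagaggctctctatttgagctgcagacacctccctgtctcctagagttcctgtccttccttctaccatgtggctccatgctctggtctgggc
Ces1c: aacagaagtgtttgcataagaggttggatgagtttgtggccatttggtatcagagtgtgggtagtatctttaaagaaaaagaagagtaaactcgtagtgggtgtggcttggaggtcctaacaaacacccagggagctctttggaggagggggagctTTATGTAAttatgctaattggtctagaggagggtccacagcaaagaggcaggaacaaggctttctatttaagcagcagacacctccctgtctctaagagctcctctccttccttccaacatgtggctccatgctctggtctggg
Ces1e: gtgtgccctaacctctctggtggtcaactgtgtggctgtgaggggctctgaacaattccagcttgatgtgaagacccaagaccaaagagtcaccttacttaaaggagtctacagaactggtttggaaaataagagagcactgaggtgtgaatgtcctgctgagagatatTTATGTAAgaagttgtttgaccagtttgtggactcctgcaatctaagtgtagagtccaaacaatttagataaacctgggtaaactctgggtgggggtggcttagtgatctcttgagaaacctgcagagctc
Ces1g: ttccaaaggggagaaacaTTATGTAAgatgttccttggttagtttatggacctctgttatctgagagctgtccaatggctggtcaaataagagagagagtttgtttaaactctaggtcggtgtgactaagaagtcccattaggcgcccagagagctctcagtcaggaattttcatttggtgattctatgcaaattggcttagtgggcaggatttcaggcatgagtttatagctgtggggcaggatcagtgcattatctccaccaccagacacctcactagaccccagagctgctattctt
The letters TTATGTAA are those of the D-box read by the DBP and NFIL3 family of factors, and both strands were searched after the windows had been read. They began 84 bases before the start in Ces1b, 94 in Ces1c, 81 in Ces1e and 232 in Ces1g. RefSeq holds another start for Ces1b, at the outer end of the annotated gene, and there the same letters began 7 bases before the start. Of the 6 Ces1 genes with a window, Ces1a included, 5 held them, against 0 of the 9 other carboxylesterase genes with a window and 1.11% of the 27025 genes with a window in the table. These counts include the windows in which the letters were read, so they are a description and not a test. The windows of Ces1b and Ces1c were identical at 253 of 297 aligned positions, or 85.2%, so their matches are not independent of each other. The same letters therefore stood before Ces1b and Ces1e, which fell in KO livers at 4 weeks, and before Ces1c and Ces1g, which did not pass the test there. A letter match is a description of the window and was not tested as a binding site.

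Of the Ces2 genes, Ces2a (chr8:104733914-104733961) and Ces2e (chr8:104926161-104926208), both on the plus strand, shared the letters CTTTGCCC, which are set in capitals in the 48 bases around them.
Ces2a: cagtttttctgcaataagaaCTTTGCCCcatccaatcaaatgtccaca
Ces2e: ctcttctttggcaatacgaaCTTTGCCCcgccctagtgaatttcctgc
These letters began 69 bases before the start in Ces2a and 79 in Ces2e, and both strands were searched after the windows had been read. Counts of the letters therefore include the windows they were read from, and are a description and not a test. They occurred in 4 of the 9 carboxylesterase genes outside the Ces1 genes (Ces2a, Ces2e, Ces2f and Ces2g), in 0 of the 6 Ces1 genes and in 1.9% of all genes with a window. Neither Ces2a nor Ces2e passed the test for KO against WT at either age.

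All values are the deposited log2 signals, in which 1 unit is a 2-fold difference. Ogt had 7.37, 8.30, 8.13, 8.84 and 8.07 in KO livers at 4 weeks, against 9.37, 9.87, 9.83, 9.65 and 9.14 in WT livers, a difference of -1.43 (SE 0.20, limma adjusted p = 8.82e-05). At 8 weeks Ogt averaged 9.81 ± 0.21 in livers labelled KO and 10.08 ± 0.20 in WT livers (SD, n = 5 each), a difference of -0.27 (limma adjusted p = 0.529), so the array signal did not separate the labels at that age. The place of the Ogt probes relative to the deleted part of the gene was not known from the sources used here. Markers of skeletal muscle were high in 3 of the 4-week arrays, with Acta1 at 15.04 and 15.43 in KO replicates 4 and 5 and 15.89 in WT replicate 4, against 4.24 to 6.11 in the other 17 arrays. The mean of 7 kidney and gut markers was 6.94 and 7.28 in WT replicates 3 and 4 at 4 weeks. It was 5.36, 5.71 and 5.54 in the other WT arrays and 5.21 to 5.99 in KO livers at that age. The source of that signal was not tested. Hepatocyte markers (15 measured, Alb and Ttr among them) had 0 genes called between KO and WT livers at either age. Of all genes 10.2% were called at 4 weeks and 6.58% at 8 weeks. Of their 15 KO minus WT differences 14 were below 0 at 4 weeks (median -0.17) and 8 at 8 weeks (median -0.05). The mean signal of these markers per array was 18.58 to 18.79 in KO livers, against 18.74 to 18.89 in WT livers, at 4 weeks. At 8 weeks it was 18.62 to 18.76 in KO livers, against 18.67 to 18.73 in WT livers. Of 12 macrophage markers 4 were higher in KO livers at 4 weeks and 7 at 8 weeks, of 8 cholangiocyte markers 1 and 7, and of 11 stellate cell and fibroblast markers 0 and 7, where 4.7% and 4.94% of all genes were higher. Of 10 endothelial markers 1 was lower and 0 higher in KO livers at 4 weeks, where 5.48% of all genes were lower and 4.7% higher. The lower marker was Stab2, a scavenger receptor of sinusoidal endothelium (-1.07, limma adjusted p = 0.00143). At 8 weeks 1 was higher and 0 lower, Pecam1 (0.81, adjusted p = 0.0358), where 4.94% of all genes were higher and 1.65% lower. With 10 markers, such counts lie near the shares over all genes. The mean endothelial signal per array was 9.07 to 9.66 in KO livers, against 9.33 to 9.89 in WT livers, at 4 weeks, and 8.79 to 9.29 in KO livers, against 8.0 to 8.95 in WT livers, at 8 weeks. The part of these cell types in the carboxylesterase differences was not tested. In RNA from whole liver, fewer cells of a type and less RNA per cell cannot be told apart.

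**Figure D1:**
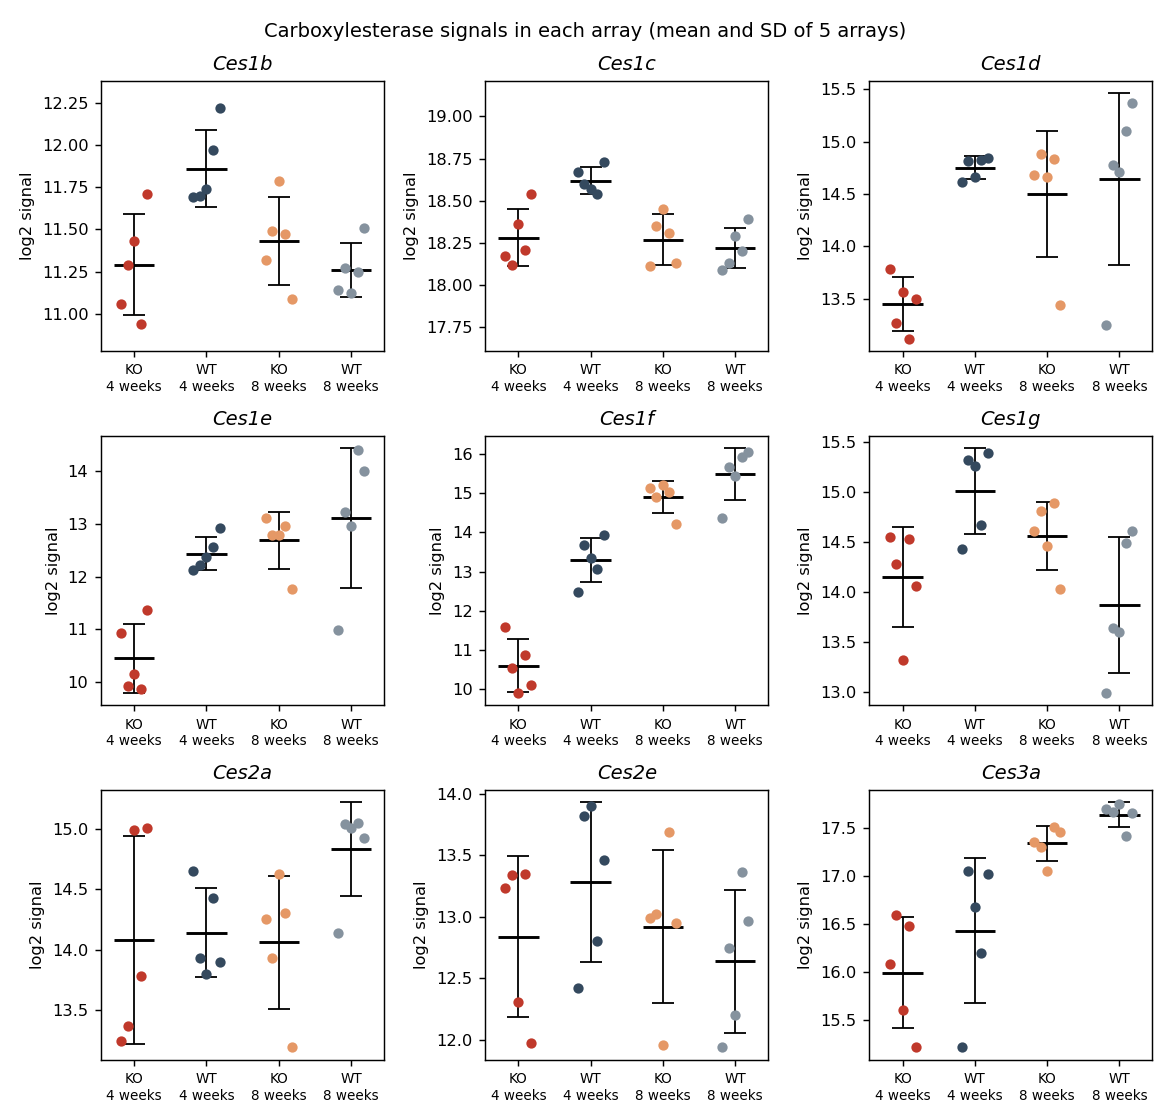
Log2 signal of the 9 measured carboxylesterases in each of the 20 arrays, with KO left of WT at each age; points are arrays, the thick line is the group mean and the bars are 1 SD (n = 5), and each panel has its own vertical axis. Ces1d, Ces1e and Ces1f show KO arrays at 4 weeks that all lie below the WT arrays, and Ces3a shows a tighter spread at 8 weeks than at 4 weeks in both genotypes.

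At 4 weeks several Ces1 genes were lower in KO livers than in WT livers. Of the 9 measured carboxylesterases 4 fell (Ces1b, Ces1d, Ces1e and Ces1f), 0 rose and 5 did not pass the test, where 5.48% of all genes fell and 4.7% rose in the same comparison, 10.2% in all. The 4 were all among the 6 Ces1 genes, and of the other 3 of the 9 (Ces2a, Ces2e and Ces3a) 0 passed, while 3 further genes of the Ces2 and Ces3 group that are not among the 9 (Ces2g, Ces3b and Ces4a) were lower in KO livers. The median difference was -0.58 over the 9 genes, -1.08 over the Ces1 genes and -0.44 over the others, beside 0.00 over all genes. The KO and WT arrays did not overlap for 3 of the 9 genes (Ces1d, Ces1e and Ces1f), where 4.49% of all genes were lower and 4.06% higher in KO without overlap.

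Ces1f showed the largest difference of the 9 genes at 4 weeks. It had 11.59, 10.55, 9.90, 10.86 and 10.11 in KO livers, against 12.49, 13.67, 13.34, 13.06 and 13.94 in WT livers. Every KO array lay below the lowest WT array. The difference was -2.70 (SE 0.33, 95% interval -3.39 to -2.0), which put KO livers at 15.4% of the WT signal (limma adjusted p = 1.87e-05).

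Ces1e, the gene of egasyn, had 10.93, 9.93, 10.16, 9.87 and 11.37 in KO livers at 4 weeks, against 12.13, 12.23, 12.38, 12.56 and 12.92 in WT livers. The groups did not overlap, and the KO arrays were spread more widely (10.45 ± 0.66) than the WT arrays (12.44 ± 0.31; SD, n = 5 each). KO livers stood at 25.1% of WT livers, a difference of -1.99 (SE 0.45, limma adjusted p = 0.00595).

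Ces1d, the triacylglycerol hydrolase, had 13.78, 13.27, 13.56, 13.12 and 13.50 in KO livers at 4 weeks, against 14.61, 14.81, 14.66, 14.82 and 14.84 in WT livers. The highest KO array lay below the lowest WT array. The difference was -1.30 (SE 0.30), or 40.6% of WT (limma adjusted p = 0.00716). Ces1b fell less, with 11.06, 11.29, 11.43, 10.94 and 11.71 in KO livers, against 11.69, 11.70, 11.74, 11.97 and 12.22 in WT livers. Of its KO arrays 4 lay below all WT arrays and the highest KO array overlapped them. The difference was -0.58 (SE 0.16), or 67.0% of WT (limma adjusted p = 0.0211).

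Without the 3 arrays that held muscle transcripts, Ces1f and Ces1e remained lower in KO livers at 4 weeks, with differences of -2.68 (limma adjusted p = 0.000435) and -2.08 (adjusted p = 0.0215). Ces1d and Ces1b then kept differences of -1.19 and -0.58 but missed the threshold, with adjusted p-values of 0.0592 and 0.0522, so that the count of genes that fell was 2 in place of 4. Scaling the arrays to equal medians gave 6 genes lower in KO livers, adding Ces1c (-0.41, adjusted p = 0.0245) and Ces1g (-0.94, adjusted p = 0.0392). More of all genes were called lower under that scaling as well. The other scaling, a repeated quantile normalization, gave the same 4 genes as the main fit. Under it Ces1c differed by -0.16 (adjusted p = 0.511) and Ces1g by -0.77, and neither passed.

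The plasma esterase Ces1c averaged 18.28 ± 0.17 in KO and 18.62 ± 0.08 in WT livers at 4 weeks (SD, n = 5 each), with 4 KO arrays below all WT arrays. Its difference of -0.34 (SE 0.11) missed the threshold with a limma adjusted p of 0.0543. The triglyceride hydrolase Ces1g had 14.55, 14.28, 13.32, 14.53 and 14.06 in KO livers, against 14.43, 15.32, 15.26, 14.67 and 15.39 in WT livers. Its groups overlapped, and the difference of -0.87 (SE 0.29) had a limma adjusted p of 0.0628. A 16-bit scanner cannot record more than 16 on the log2 scale, yet Ces1c, Ces3a and Ces1f had signals over 16. The mean signal of the hepatocyte markers was over 16 as well. No source used here said how such values arose, and fold differences of genes at such levels may be stretched.

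Ces2a, Ces2e and Ces3a did not pass the test between KO and WT livers at 4 weeks. Ces2a had 13.24, 13.37, 14.99, 13.78 and 15.01 in KO livers, against 14.65, 13.93, 13.80, 14.43 and 13.90 in WT livers, so that 3 KO arrays lay below all WT arrays and 2 above all of them. Its difference was -0.06 with a 95% interval of -0.75 to 0.62. Ces2e, annotated as a pyrethroid hydrolase, read 11.98 to 13.35 in KO livers, against 12.42 to 13.90 in WT livers, a difference of -0.44 (interval -1.17 to 0.30). Ces3a read 15.21 to 16.59 in KO livers, against 15.21 to 17.05 in WT livers, also a difference of -0.44 (interval -1.03 to 0.15, limma adjusted p = 0.405). Without WT replicate 1, which held the lowest WT value of Ces3a, Ces3a was lower in KO livers (-0.75, adjusted p = 0.0475).

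**Figure D2:**
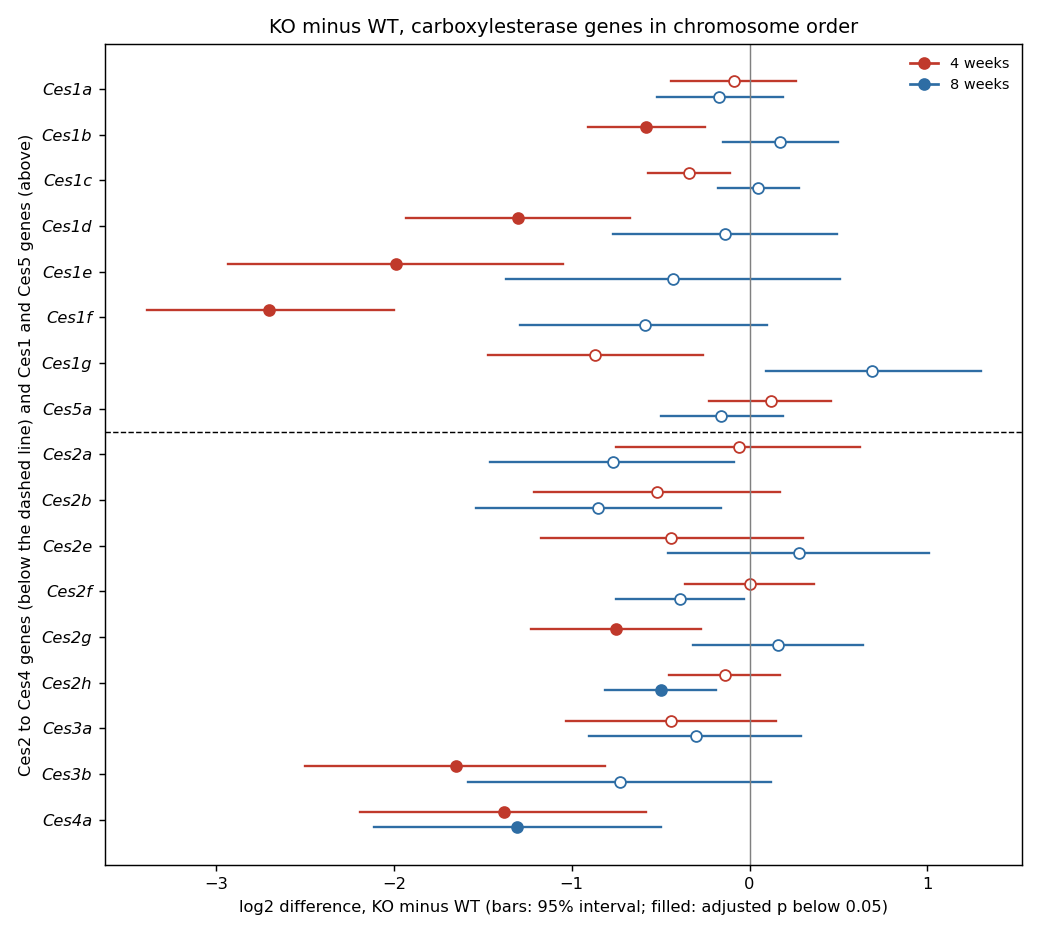
KO minus WT log2 difference of the 17 carboxylesterase genes with a row, in chromosome order, at 4 weeks (red) and 8 weeks (blue); points are limma estimates, bars are 95% intervals and filled points passed the adjusted threshold. At 4 weeks 7 genes are filled, all left of 0, and at 8 weeks only Ces2h and Ces4a are filled.

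At 8 weeks 0 of the 9 genes passed limma's test between livers labelled KO and WT livers, where 6.58% of all genes did (4.94% higher and 1.65% lower in KO). At an unadjusted p below 0.05 there were 2 of 9, Ces1g and Ces2a, where 19.4% of all genes reached it. The median difference was -0.14 over the 9 genes, beside -0.04 over all genes. Scaling the arrays to equal medians moved every KO minus WT difference at 8 weeks by -0.11, and 0 of 9 passed there too. The KO and WT arrays overlapped for all 9 genes, where 1.96% of all genes were lower and 4.13% higher in KO without overlap.

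Ces1f had 15.14, 14.91, 15.20, 15.03 and 14.21 in livers labelled KO at 8 weeks, against 14.36, 15.67, 15.45, 15.92 and 16.05 in WT livers. All KO arrays but the lowest fell between the lowest and the next WT array, and the difference was -0.59 (interval -1.29 to 0.10). Ces1e had 13.12, 12.80, 12.80, 12.97 and 11.76 in KO livers, against 10.98, 13.23, 12.97, 14.41 and 14.01 in WT livers, a difference of -0.43 (interval -1.37 to 0.51). Its WT arrays were widely spread, and all 5 KO arrays lay within their range. Ces1d, at 14.5 ± 0.60 in KO and 14.64 ± 0.82 in WT livers, differed by -0.14 (interval -0.77 to 0.49).

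Ces1g was the gene with the largest positive estimate among the 9 at 8 weeks. It had 14.61, 14.81, 14.46, 14.89 and 14.03 in livers labelled KO, against 12.99, 13.64, 13.60, 14.49 and 14.61 in WT livers, a difference of 0.69 (interval 0.09 to 1.3, limma adjusted p = 0.183). Ces2a had 14.25, 13.93, 14.63, 14.30 and 13.19 in livers labelled KO, against 14.14, 15.04, 15.01, 15.05 and 14.92 in WT livers. Of the WT arrays 4 lay above all KO arrays and replicate 1 lay among them, and the difference was -0.77 (interval -1.46 to -0.09, adjusted p = 0.194). Ces1b, Ces1c, Ces2e and Ces3a differed by 0.17, 0.05, 0.28 and -0.30, each with an interval that included 0.

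The KO difference itself changed with age for Ces1f and Ces1g. Tested as the interaction of genotype and age, 2 of the 9 genes passed, both with a higher KO minus WT difference at 8 weeks than at 4 weeks, where 2.05% of all genes passed that way and 1.0% the other way, 3.05% in all. For Ces1f the difference was -0.59 at 8 weeks and -2.70 at 4 weeks, a change of 2.11 (SE 0.47, limma adjusted p = 0.0182), and it held in all 28 alternatives run. For Ces1g it was 0.69 at 8 weeks and -0.87 at 4 weeks, a change of 1.56 (SE 0.41, adjusted p = 0.0408). That call was lost in 14 of 28 alternatives, with adjusted p-values from 0.0221 to 0.0763, among them the fit without the arrays with muscle transcripts (0.051) and the fit with the replicate number as a block (0.0554). Ogt moved in the same direction, by 1.16 (SE 0.29, adjusted p = 0.0307). The other 7 carboxylesterases did not pass. Among them Ces1b changed by 0.75 (SE 0.22, adjusted p = 0.0729), Ces1d by 1.16 (SE 0.43, 0.162) and Ces1e by 1.56 (SE 0.64, 0.219). At an unadjusted limma p below 0.05 there were 6 of 9, the 6 Ces1 genes, where 15.9% of all genes reached it.

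**Figure D3:**
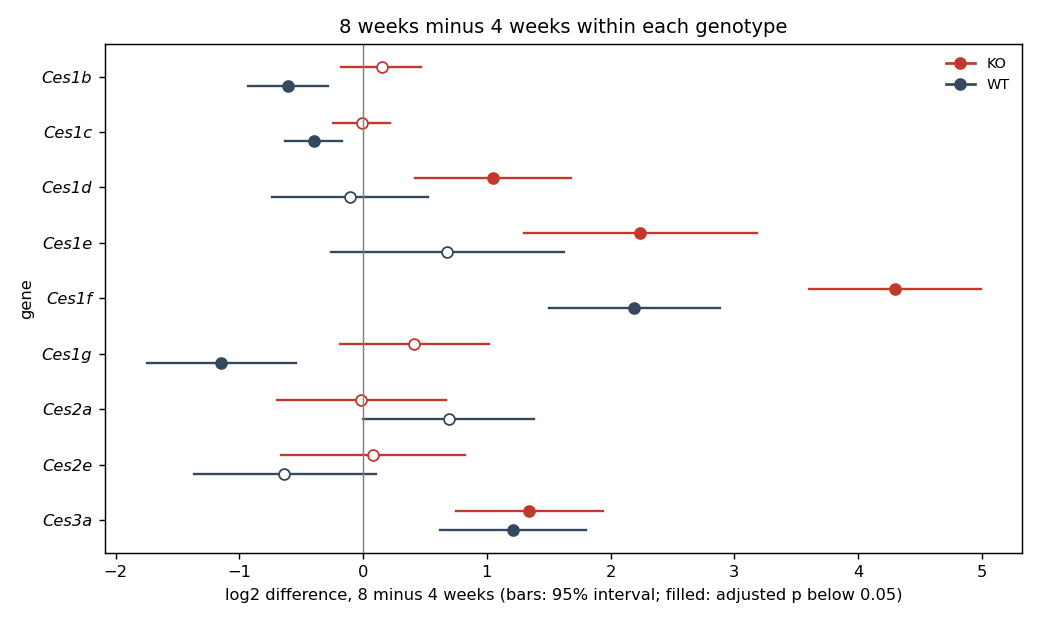
8 weeks minus 4 weeks log2 difference of the 9 carboxylesterases within KO livers (red) and within WT livers (dark blue); points are limma estimates, bars are 95% intervals and filled points passed the adjusted threshold. Ces1f and Ces3a are filled to the right of 0 in both genotypes, and Ces1b, Ces1c and Ces1g are filled to the left of 0 in WT livers.

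The carboxylesterases did not follow age in 1 direction. In KO livers 4 of 9 genes were higher at 8 weeks than at 4 weeks (Ces1d, Ces1e, Ces1f and Ces3a) and 0 were lower, where 7.85% of all genes were higher and 6.78% lower, 14.6% in all. In WT livers 2 of 9 were higher (Ces1f and Ces3a) and 3 lower (Ces1b, Ces1c and Ces1g), where 3.71% of all genes were higher and 5.23% lower, 8.94% in all. The comparisons by age share their arrays with the comparisons by genotype, so the 4-week KO arrays enter both the low values at 4 weeks and the rise with age in KO livers. The ages did not overlap for 3 genes higher at 8 weeks in KO livers (Ces1e, Ces1f and Ces3a), where 4.79% of all genes were higher and 4.69% lower without overlap. In WT livers they did not overlap for 2 genes higher (Ces1f and Ces3a) and 2 lower (Ces1b and Ces1c) at 8 weeks, where the shares of all genes were 3.7% and 5.38%.

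Ces1f rose with age in both genotypes, and its arrays did not overlap between ages. It averaged 14.90 ± 0.40 at 8 weeks and 10.60 ± 0.67 at 4 weeks in KO livers, a difference of 4.30 (SE 0.33) or 19.6-fold (limma adjusted p = 2.62e-08). In WT livers it averaged 15.49 ± 0.67 at 8 weeks and 13.30 ± 0.56 at 4 weeks, a difference of 2.19 (SE 0.33) or 4.56-fold (limma adjusted p = 0.000134). Ces3a rose by similar amounts in both, to 17.34 ± 0.18 at 8 weeks, against 15.99 ± 0.58 at 4 weeks, in KO livers (1.34, adjusted p = 0.0024) and to 17.64 ± 0.13, against 16.43 ± 0.76, in WT livers (1.21, adjusted p = 0.00817). The interaction of Ces3a was 0.14 with a 95% interval of -0.70 to 0.97.

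Ces1e rose in KO livers, where it averaged 12.69 ± 0.54 at 8 weeks and 10.45 ± 0.66 at 4 weeks, a 4.72-fold difference without overlap (limma adjusted p = 0.00159). In WT livers its difference with age was 0.68 (interval -0.26 to 1.62), and without WT replicate 1 at 8 weeks, which read 10.98, it was 1.21 with an adjusted p of 0.0274. Ces1d rose in KO livers by 1.05 (adjusted p = 0.0216), with 4 of the 8-week arrays above all 4-week arrays, and in WT livers its estimate was -0.11 (interval -0.74 to 0.52). The rise of Ces1d in KO livers missed the threshold in 6 of 29 alternatives, among them the fit without the arrays with muscle transcripts (0.96, adjusted p = 0.0938).

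Ces1g, Ces1b and Ces1c fell with age in WT livers. Ces1g averaged 13.87 ± 0.68 at 8 weeks and 15.01 ± 0.43 at 4 weeks, or 45.1% of the younger level (-1.15, SE 0.29, limma adjusted p = 0.0135). Ces1b averaged 11.26 ± 0.16 at 8 weeks and 11.86 ± 0.23 at 4 weeks (-0.61, adjusted p = 0.0165), and Ces1c 18.22 ± 0.12 and 18.62 ± 0.08 (-0.40, adjusted p = 0.0248), both without overlap between the ages. The call of Ces1c was lost in 5 of 29 alternatives, with adjusted p-values up to 0.065. In KO livers the estimates with age were 0.41 for Ces1g, 0.15 for Ces1b and -0.01 for Ces1c, and 0 of these 3 passed the test. Ces2a and Ces2e passed with age in neither genotype, with estimates of -0.02 and 0.08 in KO and 0.69 and -0.64 in WT livers.

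**Figure D4:**
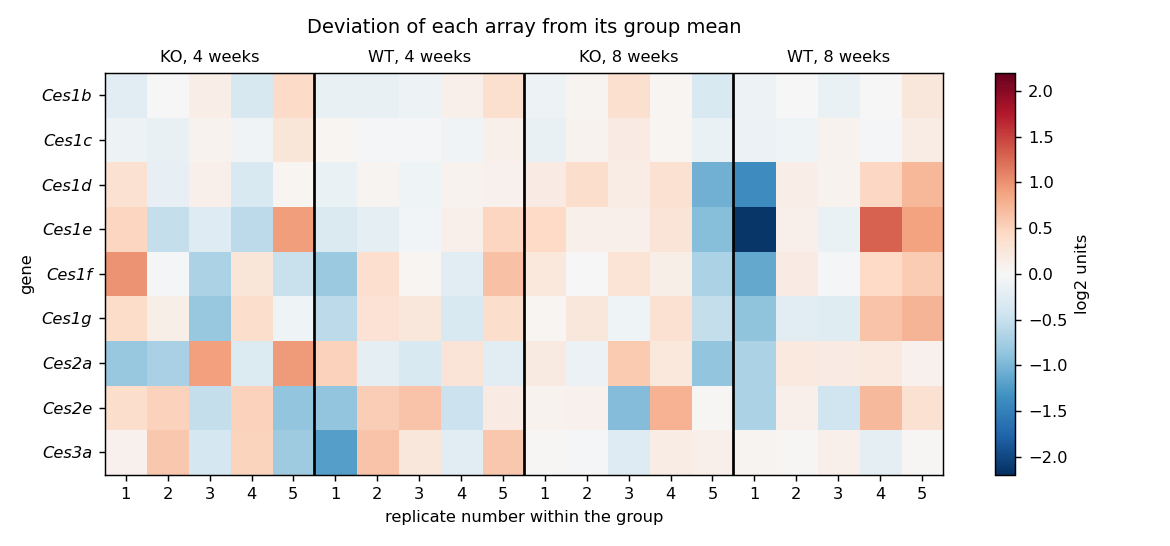
Deviation of each array from its group mean in log2 units for the 9 carboxylesterases, with KO left of WT at each age; blue cells lie below the group mean and red cells above it. WT replicate 1 at 8 weeks is low in Ces1d, Ces1e, Ces1f, Ces1g, Ces2a and Ces2e, and KO replicate 5 at 8 weeks is low in Ces1d, Ces1e, Ces1f, Ces1g and Ces2a.

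Within groups, single arrays were low in several carboxylesterases at once. At 8 weeks KO replicate 5 read 13.44 for Ces1d and 11.76 for Ces1e, against 14.66 to 14.88 and 12.80 to 13.12 in the other 4 KO arrays. At 8 weeks WT replicate 1 read 13.25 for Ces1d, 10.98 for Ces1e, 14.36 for Ces1f and 14.14 for Ces2a, each the lowest of its group. At 4 weeks KO replicates 3 and 5 were the lowest in Ces2e (12.31 and 11.98) and Ces3a (15.60 and 15.21) and the highest in Ces2a (14.99 and 15.01). KO replicate 5 was 1 of the arrays with muscle transcripts and KO replicate 3 was not.

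Over the 20 arrays, deviations from the group means were positively correlated for each adjacent pair of the 6 Ces1 genes. Pearson r was 0.74 for Ces1b and Ces1c, 0.46 for Ces1c and Ces1d, 0.88 for Ces1d and Ces1e, 0.64 for Ces1e and Ces1f and 0.86 for Ces1f and Ces1g. Pairs of Ces1 genes further apart varied, with 0.69 for Ces1d and Ces1f, 0.66 for Ces1e and Ces1g and 0.64 for Ces1d and Ces1g. The values were 0.45 for Ces1b and Ces1d, 0.49 for Ces1b and Ces1e and 0.47 for Ces1c and Ces1e. Ces1b had 0.11 with Ces1f and 0.12 with Ces1g, and Ces1c had 0.06 with Ces1f and 0.14 with Ces1g. The Ces2 and Ces3 genes varied in sign, with r = 0.69 for Ces2e and Ces3a, -0.49 for Ces2a and Ces2e, -0.67 for Ces2a and Ces3a and -0.24 for Ces2a and its neighbour Ces2b. Ces2g had 0.90 with Ces2e and -0.49 with Ces2a. Pairs across the gene groups varied too, with r = 0.75 for Ces1g and Ces2e, 0.67 for Ces1c and Ces2a, 0.61 for Ces1f and Ces2e and -0.18 for Ces1g and Ces2a. These values are descriptions over arrays that share their RNA sample, and probe sequences were not used here, so that shared hybridisation between similar carboxylesterases was not tested.

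The 8 other carboxylesterase genes with a row showed lower levels outside the Ces1 group as well. At 4 weeks 3 of the 8 were lower in KO livers and 0 higher, which with the 4 above makes 7 of 17 carboxylesterase genes, where 5.48% of all genes were lower. Ces3b, the neighbour of Ces3a, had 11.64, 12.60, 11.10, 12.27 and 11.28 in KO livers, against 11.62, 14.55, 13.69, 12.74 and 14.56 in WT livers (-1.65, SE 0.41, limma adjusted p = 0.0108). Its groups overlapped through WT replicate 1. Ces2g averaged 11.75 ± 0.30 in KO and 12.50 ± 0.43 in WT livers (-0.75, adjusted p = 0.0423). Ces4a was not above background in KO livers (4.54 ± 0.29, against a background level of 5.04) and read 5.92 ± 1.16 in WT livers. The difference was -1.38 (95% interval -2.19 to -0.58, adjusted p = 0.024), and the WT mean lay 1.84-fold above the background level of KO livers. WT replicates 1 and 4 (4.47 and 4.97) lay below the background level of WT livers, 5.02. Without the arrays with muscle transcripts 4 of the 17 remained called lower, and Ces2g missed the threshold at the same difference (adjusted p = 0.11).

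At 8 weeks 2 of the 17 carboxylesterase genes were lower in livers labelled KO, where 1.65% of all genes were lower, and both lie outside the 9. Ces4a read 4.22 ± 0.16 in KO livers, again not above background, and 5.53 ± 0.64 in WT livers without overlap. The difference was -1.31 (95% interval -2.11 to -0.5, limma adjusted p = 0.0446), and the WT mean lay 1.42-fold above the background level of KO livers. WT replicate 5 (4.66) lay below the background level of WT livers, 5.2. Ces2h averaged 6.76 ± 0.33 in KO and 7.26 ± 0.21 in WT livers (-0.50, adjusted p = 0.0465), and without the arrays with muscle transcripts, all of them at 4 weeks, its difference was the same -0.50 with an adjusted p of 0.0536. Ces3b did not overlap between the groups, at 14.51 to 15.12 in KO and 15.30 to 15.60 in WT livers, yet its difference of -0.73 had an adjusted p of 0.346 with the spread shared over all 4 groups. Ces3b rose with age in both genotypes, by 2.98 in KO (adjusted p = 3.26e-05) and 2.05 in WT livers (adjusted p = 0.00189), and its deviations ran with those of Ces3a (r = 0.93 over 20 arrays). Ces1a and Ces2f were not above background in any group.

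Other enzymes and factors that act beside the carboxylesterases changed in part. Of 26 other ester and lipid hydrolases 6 were lower and 1 higher in KO livers at 4 weeks (median -0.27), and 0 lower and 3 higher at 8 weeks (median -0.19). Of all genes 5.48% were lower and 4.7% higher at 4 weeks, and 1.65% lower and 4.94% higher at 8 weeks. Without the arrays with muscle transcripts 5 of the 26 were lower at 4 weeks and 3 at 8 weeks. In that fit 349 of all 19505 genes were lower at 8 weeks, against 321 with every array, and fewer were lower at 4 weeks. Abhd6, a monoglyceride hydrolase, averaged 10.04 ± 0.43 in KO and 11.45 ± 0.65 in WT livers at 4 weeks (-1.42, limma adjusted p = 0.00156). Abhd5, the co-activator of adipose triglyceride lipase, was higher at 4 weeks, at 11.06 ± 0.14 in KO and 10.33 ± 0.22 in WT livers (0.73, adjusted p = 0.00152). At 8 weeks the genes higher in KO than in WT livers included Lpl, the lipoprotein lipase of vessel walls (2.2, adjusted p = 0.000826), and Abhd2 (2.15, adjusted p = 0.000327). Lpl averaged 10.44 in KO and 8.24 in WT livers at 8 weeks, against 12.61 and 12.79 at 4 weeks. Abhd2 averaged 11.84 in KO and 9.69 in WT livers at 8 weeks, against 12.42 and 12.46 at 4 weeks. The means of both genes were thus lower at 8 weeks than at 4 weeks in both genotypes. At 8 weeks 7 of 11 stellate cell and fibroblast markers were higher in livers labelled KO, with array means of 9.03 to 10.44 in KO and 7.24 to 8.22 in WT livers. The part of those cells in the KO minus WT difference of Lpl was not tested.

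Of 21 genes of very low density lipoprotein assembly and triglyceride synthesis, the route that Ces1d feeds, 1 was higher and 0 lower in KO livers at 4 weeks and 0 passed at 8 weeks. Of all genes 4.7% were higher and 5.48% lower at 4 weeks, and 4.94% higher and 1.65% lower at 8 weeks. The counts at 4 weeks thus lay near the shares over all genes. The median differences of the 21 genes were -0.13 and -0.14, and without the arrays with muscle transcripts 1 of them was lower at 4 weeks and 3 at 8 weeks. In that fit 349 of all 19505 genes were lower at 8 weeks, against 321 with every array. The number over all genes thus changed little at 8 weeks, while that of the 21 genes went from 0 to 3. At 4 weeks fewer of all genes were lower in that fit than with every array. The 1 of the 21 that was higher at 4 weeks was Cidec, a lipid droplet protein, at 6.71 ± 0.59 in KO and 5.22 ± 0.16 in WT livers (1.49, limma adjusted p = 0.00355).

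Of 17 nuclear receptors and other factors known to act on carboxylesterase genes or on hepatocyte genes, 5 were lower and 0 higher in KO livers at 4 weeks, where 5.48% of all genes were lower. Of the 17 estimates 16 were below 0, with a median of -0.56. Nr5a2, the receptor LRH-1, had the smallest adjusted p of the 4 factors named here, at 10.86 ± 0.19 in KO and 11.94 ± 0.23 in WT livers (-1.08, limma adjusted p = 2.7e-05). Nr1i3, the xenobiotic receptor CAR, averaged 9.11 ± 0.47 in KO and 10.59 ± 0.67 in WT livers (-1.47, adjusted p = 0.00575). Rxra, the partner of CAR on DNA, and Nr3c1, the glucocorticoid receptor, differed by -0.75 (adjusted p = 0.00484) and -0.61 (adjusted p = 0.0174). At 8 weeks 1 of the 17 was lower and 0 higher (median -0.27), where 1.65% of all genes were lower, and the estimates of these 4 genes were -0.27, -0.11, -0.33 and -0.07, all short of the threshold.

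Of 19 targets of CAR and the related receptor PXR, 2 were higher and 0 lower in KO livers at 4 weeks, and 1 higher and 1 lower at 8 weeks. These counts lie near the shares over all genes, of which 4.7% were higher at 4 weeks and 4.94% higher and 1.65% lower at 8 weeks. Gstm1, a glutathione S-transferase, rose at both ages (0.71 and 0.50, limma adjusted p = 0.00134 and 0.0225), and Cyp2a5 rose at 4 weeks (1.11, adjusted p = 0.00849). Cyp2c37 fell at 8 weeks (-1.0, adjusted p = 0.0475), and without the 4-week arrays with muscle transcripts its difference was the same with an adjusted p of 0.0576.

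The genes outside the family whose signals ran most like Ces1f over the 20 arrays were Ugt3a1 (Pearson r = 0.970), Epb41l4b (0.970), Ghr (0.963), Fam149a (0.961) and Slc22a30 (0.960). Ugt3a1 averaged 8.40 in KO and 11.18 in WT livers at 4 weeks, and 13.70 in KO and 14.90 in WT livers at 8 weeks. Ghr, the growth hormone receptor, averaged 15.70 in KO and 16.37 in WT livers at 4 weeks, and 16.78 in KO and 17.00 in WT livers at 8 weeks. After group means were removed the correlations with Ces1f were 0.65 for Ugt3a1, 0.76 for Epb41l4b, 0.79 for Ghr, 0.67 for Fam149a and 0.30 for Slc22a30. Ces2a, the gene with the largest difference in size at 8 weeks, was most like Fam98c (0.933), Borcs5 (0.849), Crk (0.833), Ftcd (0.805) and Rtp3 (0.803), of which Fam98c was not above background in any group.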

How the data were processed

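RNA from whole liver was hybridised to Clariom S Mouse arrays, 5 per group. The deposited values are log2 signals that the authors made with RMA in Affymetrix Expression Console, per the submitters' processing notes, with versions not given in the sources used here. They ran from 2.32 to 19.85, with array medians of 5.42 to 5.58, and no 2 arrays were identical. Of 22206 features 19572 carried 1 gene symbol, and the feature with the highest mean was kept per symbol, which left 19505 genes. Groups came from the genotype and age labels, and array numbers in the titles run with the groups, so array order and group cannot be told apart. The fit was limma's (version 3.58.1, R 4.3.3) with 4 group means, with Benjamini-Hochberg adjustment over all genes and a threshold of 0.05, and the script was tested on simulated data. The background level was the 95th percentile of 1410 olfactory and vomeronasal receptor genes. The members and lists were chosen with earlier results of these data known. Named genes are all members, the other carboxylesterases, Ogt, up to 4 called genes per list and the 5 genes most like the members with the largest difference at each age. Alternatives were 2 scalings, a filter on dim genes, other variance models, array weights, a replicate block, unnamed features and leaving out arrays.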

Additional observations from a re-analysis of the deposited data

Results flagged for a closer look

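In 4 of the 36 groups of 5 arrays formed by the 9 genes, 1 array lay apart from the other 4, with a gap of more than 0.71 of the group's range, and chance gives about 1 in 20. KO replicate 5 at 8 weeks was low in Ces1d (13.44) and in Ces1e (11.76). WT replicate 1 at 8 weeks was low in Ces2a (14.14), and WT replicate 4 at 8 weeks was low in Ces3a (17.42).

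The KO minus WT difference at 8 weeks exceeded that at 4 weeks by 2.11 for Ces1f (limma adjusted p = 0.0182) and by 1.56 for Ces1g (adjusted p = 0.0408), each by the test of the interaction of genotype and age. Without KO replicate 5 at 8 weeks the interaction of Ces1b (adjusted p = 0.0471) and that of Ces1d (adjusted p = 0.0485) passed as well.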

How the results depend on the processing

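Of 1296 differences of the 9 genes under alternatives, 1225 kept their direction and their side of the threshold, 30 lost a call, 14 gained one and 27 changed sign. The 27 were all of differences that had not passed. The count of genes called at 4 weeks was 2 in place of 4 without the arrays with muscle transcripts. The count for the interaction was 1 in place of 2 without those arrays and 1 with the replicate block. Leaving out 1 array at a time gave 1 to 4 genes for the interaction, 3 to 6 at 4 weeks, 0 at 8 weeks, 4 to 5 with age in WT and 3 to 4 with age in KO livers. Quantile normalization turned Ces2a at 4 weeks to 0.04, and equal medians turned Ces1c at 8 weeks to -0.06. Without the arrays with muscle transcripts, the difference with age in KO livers turned to 0.05 for Ces1c, 0.19 for Ces2a and -0.04 for Ces2e. Leaving out 1 array at a time gave -0.30 to 0.15 for Ces2a at 4 weeks, -0.49 to 0.12 for Ces1d at 8 weeks and -0.06 to 0.44 for the interaction of Ces3a. It gave -0.29 to 0.24 for Ces1d with age in WT, and with age in KO livers -0.06 to 0.06 for Ces1c, -0.23 to 0.22 for Ces2a and -0.14 to 0.32 for Ces2e. The cause of these changes was not tested. Ces1b at 4 weeks lost its call in 4 of 29 alternatives (adjusted p up to 0.0702), while Ces1e and Ces1f kept theirs in all 29. Between same-numbered KO and WT arrays the correlation of deviations was -0.15 to 0.48 at 4 weeks and -0.18 to 0.14 at 8 weeks. It exceeded 0.1 for 4 of 5 numbers at 4 weeks and 1 of 5 at 8 weeks. At each age 2 of 5 arrays matched best with their own number. With 5 arrays per group these values do not settle whether the numbers pair the arrays. With the replicate block 4, 0 and 1 genes were called at 4 weeks, at 8 weeks and for the interaction, and the lost call was that of Ces1g (adjusted p = 0.0554). With equal medians, 33.2% of all genes called at 4 weeks were higher in KO livers in place of 46.2%, 48.3% in place of 75% at 8 weeks, and with age in WT 52.0% in place of 41.5%. Each member has 1 feature, so the choice of row per symbol gave no alternative, and the interaction needs all groups. The number of arrays, 5 per group, limits the precision of all values.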
